A study of Mus musculus with 8 samples.

Results

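The 10 genes described here encode members of the BCL2 family, the proteins that decide whether mitochondria release the signals of programmed cell death. They were taken by name: Bcl2, Bcl2l1, Bcl2l2 and Mcl1 (anti-apoptotic), Bax and Bak1 (effectors) and Bcl2l11, Bid, Bbc3 and Pmaip1 (BH3-only), 10 of 21887 protein-coding genes placed on the mouse chromosomes. For each gene, the positions of 5-hydroxymethylcytosine (5hmC) peaks were read over the gene span plus 2 kb on each side, called the window below. The tissue was spleen, the cells germinal center B cells and the strain C57BL/6, with a TET2 wild-type genotype (WT) or a TET2 knockout (KO). Each genotype had 2 libraries of DNA immunoprecipitated for 5hmC, replicates 2 and 3 in the labels and called KO2, KO3, WT2 and WT3 below. The labels do not say whether they came from separate animals, how the knockout was made, or the age of the animals. What a p-value measures here is thus no more than library-to-library spread, and that may be technical. The peak lists carry no expression values, so the labelled cell type could not be checked against marker expression.

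Anti-apoptotic members bind and hold back BAX and BAK1, which otherwise form pores in the outer mitochondrial membrane. BH3-only proteins are the triggers: they occupy the anti-apoptotic members or activate the effectors directly. Germinal center B cells are known for low BCL2 protein and for reliance on MCL1, and follicular lymphoma, which arises from such cells, usually carries a translocation that keeps BCL2 on. 5hmC is the product of TET dioxygenases acting on 5-methylcytosine, and it is commonly found in gene bodies and at enhancers, and is scarce at CpG-rich promoters.

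Peaks covered 137.0 Mb in KO2, 110.6 Mb in KO3, 124.8 Mb in WT2 and 139.3 Mb in WT3, so KO3 had the least. In the window of Tet2, the gene knocked out, they covered 3213, 2444, 3191 and 2810 bases in the same order. Peak coverage does not read the knockout itself and so does not check the genotypes. The 266 peaks of the BCL2 family held 25 to 153 reads at their summits, with a median of 48, over a local background of 8.66 to 18.9 reads. WT2 had the lowest median background at these peaks, 8.66 reads, against 11.6, 10.9 and 11.7 in KO2, KO3 and WT3. In each list this median was also the lowest value among these peaks, so it describes the library rather than these sites.

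The starts of these genes were nearly free of 5hmC peaks. RefSeq (GRCm38.p6) gives 14 promoter windows for 9 of the 10 genes, each reaching from 250 bases before a start to 50 after it. A peak touched 1 of the 14 (7.14%), at Bcl2l2 and in KO2 alone, against 8.22% of 21263 promoter windows of all protein-coding genes touched in any library. The family's share is near that background. CpG dinucleotides, the motif CG, which reads the same on both strands, numbered 44 in the Bcl2 window, 34 in that of the first start of Bbc3, 33 in Mcl1 and 9 in Bcl2l2, against a median of 13 over all windows. At least 1 CG occurred in 95.4% of all windows. The 250 bases before the start are shown for 4 genes, picked as examples. Bcl2 has a CpG-dense promoter far from any peak, and the promoter of Bcl2l2 is the one touched by a peak. Bax and Bcl2l11 each have a peak just upstream. Capitals mark each CG.
Bcl2 (chr1:106714291-106714540, minus strand): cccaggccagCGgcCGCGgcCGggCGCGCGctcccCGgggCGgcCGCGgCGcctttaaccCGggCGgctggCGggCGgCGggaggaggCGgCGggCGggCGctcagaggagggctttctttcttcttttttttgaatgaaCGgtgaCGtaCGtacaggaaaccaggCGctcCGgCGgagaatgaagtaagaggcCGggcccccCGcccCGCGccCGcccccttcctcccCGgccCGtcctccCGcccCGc
Bcl2l2 (chr14:54883175-54883424, plus strand): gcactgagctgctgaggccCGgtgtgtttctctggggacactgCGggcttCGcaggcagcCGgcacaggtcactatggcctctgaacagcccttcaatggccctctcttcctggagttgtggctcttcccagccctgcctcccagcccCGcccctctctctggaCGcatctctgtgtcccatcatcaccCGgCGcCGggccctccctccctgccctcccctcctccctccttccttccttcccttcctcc
Bax (chr7:45466899-45467148, minus strand): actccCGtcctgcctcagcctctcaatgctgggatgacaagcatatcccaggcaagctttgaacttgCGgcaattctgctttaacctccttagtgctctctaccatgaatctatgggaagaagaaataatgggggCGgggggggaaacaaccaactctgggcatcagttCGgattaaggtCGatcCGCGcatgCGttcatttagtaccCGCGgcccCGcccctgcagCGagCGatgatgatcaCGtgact
Bcl2l11 (chr2:128125788-128126037, plus strand): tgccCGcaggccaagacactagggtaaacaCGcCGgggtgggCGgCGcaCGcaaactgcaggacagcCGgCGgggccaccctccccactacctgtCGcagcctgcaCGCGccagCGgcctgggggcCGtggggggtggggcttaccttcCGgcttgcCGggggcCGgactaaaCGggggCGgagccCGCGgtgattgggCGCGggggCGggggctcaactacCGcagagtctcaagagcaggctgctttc
From its promoter window, the nearest 5hmC region lay 14801 bases away for Bcl2, 231 for Bax and 256 for Mcl1. Distances were 1451 for Bak1, 2253 for Bid, and 238 and 1775 at the 2 starts of Bcl2l11. At Bcl2l1 the 3 starts had 626, 775 and 209, with 1, 14 and 22 CG. At Bbc3 they had 1125, 447 and 277, with 34, 30 and 39 CG. Fewer CG thus did not always go with a nearer region. Over all genes, a peak touched 6.01% of windows in the upper quartile of CG number and 7.62% in the lower. The relation of CG number to peaks was not tested.

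When peaks of the 4 libraries that touched or overlapped were merged, the 10 windows held 89 regions, 294 to 1574 bp wide. Of these, 77 (86.5%) had their midpoint inside a gene span, 3 lay before a start and 8 after an end, and 1 lay outside the span of Pmaip1, whose strand the reference tables used here do not give. A peak was present in all 4 libraries for 43 regions (48.3%), below the 58.0% of 148856 regions in windows of all protein-coding genes, and 20 regions (22.5%) came from 1 library, against 18.2%. KO2 had a peak in 68 of the 89 (76.4%, against 77.0% over all gene windows), KO3 in 59 (66.3%, against 75.0%), WT2 in 69 (77.5%, against 75.5%) and WT3 in 64 (71.9%, against 82.4%). KO3 had the fewest and WT2 the most, and WT3 lay between the KO libraries. Both WT libraries and neither KO library had a peak in 3 regions (3.37%, against 2.24% over all gene windows), 2 in Bid and 1 in Bcl2, and 0 regions showed the opposite, against 1.26%. These shares are near the background. Relative to window length the family had 0.913 (Pmaip1) to 3.9 (Bak1) regions per 10 kb, and 9 of the 10 genes exceeded the median gene, which had 1.27.

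The authors also deposited regions called higher in WT (WT-higher, 24645 in all) or in KO (KO-higher, 50 in all), each with a score whose scale is not stated in the sources used here. In the authors' deposited tables, 5 of the 10 genes had at least 1 WT-higher region: Bcl2 with 8, Bcl2l1 and Bak1 with 2 each, and Mcl1 and Bid with 1 each. Over all protein-coding genes 23.7% had one, and among those with any 5hmC region 28.3%. There were 0 KO-higher regions in the family, where 0.0868% of all genes had one. The 14 WT-higher regions were 202 to 396 bp wide, with scores from 3.75 to 7.13 and a median of 4.83, close to the 4.77 of all WT-higher regions. By role, 11 lay at anti-apoptotic genes (8 of them at Bcl2), 2 at effectors and 1 at a BH3-only gene. As a share of merged regions, a WT-higher region overlapped 9 of 57 (15.8%) at anti-apoptotic genes, 2 of 8 (25%) at effectors and 1 of 24 (4.17%) at BH3-only genes. Of the 9, 7 were at Bcl2, and the 2 at effectors lie in the span of Ggnbp1, the neighbor of Bak1. The BH3-only share is near that over all gene windows, given next. A WT-higher region overlapped 12 of the 89 merged regions (13.5%), against 7.26% over all gene windows. Without Bcl2 the count was 5 of 53 (9.43%), so much of the family's share came from that gene. The deposited calls have no replicate values, so none of these counts carries a test.

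**Figure D1:**
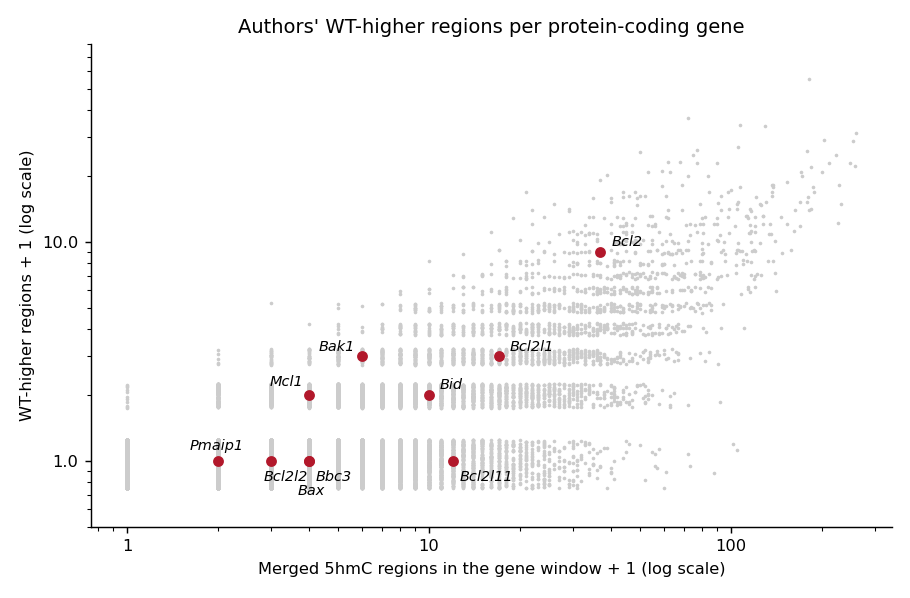
WT-higher regions in the authors' deposited table (vertical axis, plus 1) against merged 5hmC regions in the same window (horizontal axis, plus 1), both on log scales, for all 21887 protein-coding genes (grey, with small vertical jitter) and the 10 BCL2 family genes (red). Bcl2 stands highest of the family with 8 WT-higher regions, and Bcl2l11 has 11 merged regions and no WT-higher one.

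Bcl2, whose product is the founding inhibitor of mitochondrial cell death, had the most 5hmC regions and covered bases of the family in total. Relative to its length it had 2.0 regions per 10 kb, fewer than 7 of the other 9 genes. Its span on chromosome 1 (106538176 to 106714290, minus strand) is 176115 bp, and its window held 36 merged regions, more than 96.6% of protein-coding genes. Peaks numbered 27 in KO2, 25 in KO3, 27 in WT2 and 23 in WT3. All 4 libraries shared 17 of the 36 regions. The region nearest to the start had its midpoint 15 kb downstream of it, so the promoter and the first stretch of the gene had no peak in any library.

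All 8 WT-higher regions of Bcl2 lay in the part of the gene far from its start, with midpoints 77.5 to 159.5 kb downstream, or 44.0 to 90.6% of the span. Nearer to the start than any of these lay 9 merged regions, 5 of them with a peak in every library. That cut was set by the WT-higher regions themselves. With 7.26% of merged regions over all gene windows overlapping a WT-higher region, none among these 9 is near the background. Of protein-coding genes of every length, 1.21% had 8 or more WT-higher regions, but Bcl2 also had more merged regions than 96.6% of them. As a share of merged regions, a WT-higher region overlapped 7 of 36 (19.4%) at Bcl2, against 7.26% over all gene windows. In the authors' deposited table the highest score in Bcl2, 6.78, belonged to the region at 106556230 to 106556535, where the peaks had fold enrichments of 3.90 in KO2 and 4.56 in WT2 and none was called in KO3 or WT3. Next came 106610419 to 106610683, with a score of 5.36 and a peak in WT2 alone (3.11-fold), which lies within the span of the long noncoding RNA gene Gm37053. Of the 8 regions, 5 overlapped a peak in all 4 libraries, and the one at 106554638 to 106554864 (score 4.34) overlapped none.

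The tallest peak of Bcl2 was at one of these sites. At 106636374 to 106636922, 77.6 kb from the start, the fold enrichment over local background was 10 in KO2, 5.86 in KO3, 13.0 in WT2 and 9.07 in WT3. WT2 was highest and KO3 lowest, but KO2 exceeded WT3, so the genotypes overlapped. The KO2 summit lay outside the WT-higher region at this site, so its value was not taken inside that region. The site that ranked highest on average within the 4 lists, at 106589944 to 106590510, had 11, 10.2, 9.27 and 9.70 in the same order and no WT-higher region. There, both KO libraries were above both WT libraries. At 106619240 to 106620332, which overlaps a WT-higher region of score 4.55 in the authors' deposited table, the values were 7.47, 6.32, 9.52 and 7.62, with both KO libraries lower. Fold enrichments are the authors' values for each peak and depend on each library's own background, so no test was made between lists. They are taken at peak summits, which can lie outside the WT-higher region that a peak overlaps.

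**Figure D2:**
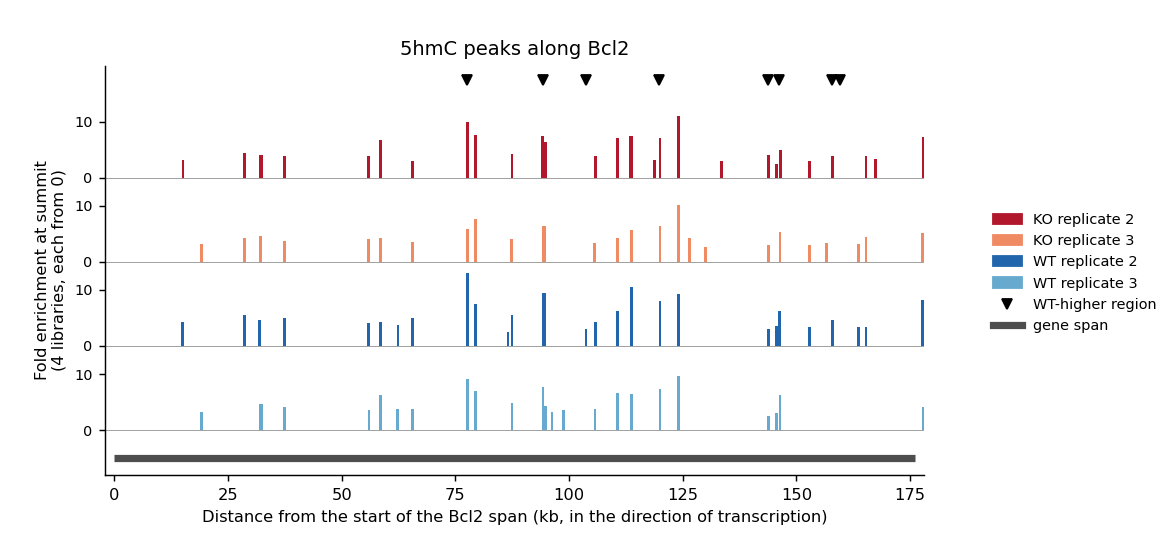
Fold enrichment at the summit of each deposited 5hmC peak (vertical axis, 4 libraries stacked, each from 0; narrow peaks are widened to be visible) along the Bcl2 window, by distance from the start of the span in kb. Triangles mark the 8 WT-higher regions, all between 77.5 and 159.5 kb, and no peak lies in the first part of the gene up to the region at 15 kb.

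Bcl2l1 encodes BCL-XL, a close relative of BCL2 that keeps many cell types alive. Its window (span on chromosome 2, 152758732 to 152833803, minus strand) held 16 merged regions, 8 of them shared by all libraries; 3 of the 16, at the end of the gene, lie in the span of its neighbor Cox4i2. The strongest, at 152786281 to 152786827 and 47.2 kb from the start, had fold enrichments of 10.1, 8.34, 10.9 and 8.88 in KO2, KO3, WT2 and WT3. It was thus strong in every library, with overlapping genotypes, and overlapped no WT-higher region. The WT-higher regions of Bcl2l1 lay elsewhere: one at 152829468 to 152829863 (score 4.22 in the authors' deposited table), 4.1 kb into the span and between 2 of its alternative starts, where only WT2 had a peak (4.87-fold). The other, at 152800473 to 152800702 (score 4.92 in the authors' deposited table), overlapped no peak in any library.

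Mcl1, the short-lived survival factor, had 3 merged regions in its window (span on chromosome 3, 95656944 to 95663179, plus strand). The strongest lay after the end of the gene, at 95664158 to 95665092, with fold enrichments of 5.02 in KO2, 3.37 in KO3, 6.00 in WT2 and 4.81 in WT3. WT2 was highest and KO3 lowest, and KO2 exceeded WT3. This site overlaps the WT-higher region of Mcl1, at 95664722 to 95664933, with a score of 5.67 in the authors' deposited table. A weak region at 95657423 to 95658214 was called in all 4 libraries at 2.95, 3.37, 3.27 and 2.99-fold, inside the span but upstream of the start that the promoter table gives.

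Bcl2l2, which encodes the survival protein BCL-W, was almost bare. Its window (span on chromosome 14, 54883366 to 54890858) held 2 regions, each from 1 library: 343 bases over the start in KO2 (3.66-fold) and 335 bases near the end in WT3 (3.55-fold). KO3 and WT2 had no peak there. Each genotype thus had 1 library with a weak peak, at different places.

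The effectors differed from each other. Bax (chromosome 7, 45461695 to 45466903, minus strand) had its strongest region upstream of the gene, at 45467380 to 45468953, beyond the promoter shown above; at 1574 bp it was the widest in the family. Its fold enrichments were 9.0 in KO2, 7.27 in KO3, 10.4 in WT2 and 10.5 in WT3, so both KO values were lower here. The authors' deposited tables list no differential region in this window. Over all gene windows, both KO libraries were lower at 31.2% of shared regions, and 9.59% of shared regions overlapped a WT-higher region. Its remaining regions were weak, at most 3.96-fold.

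Bak1 (chromosome 17, 27019812 to 27028627, minus strand) had 5 regions inside its span and was the only effector with WT-higher calls. The highest score of the family, 7.13 in the authors' deposited table, belonged to its region at 27026301 to 27026581, 2.2 kb from the start. Peaks there had fold enrichments of 4.43 and 4.38 in KO2 and KO3 and of 6.32 and 3.77 in WT2 and WT3. The WT libraries were thus the highest and the lowest, and the genotypes overlapped. Its second WT-higher region, 27023151 to 27023352 (score 5.16 in the authors' deposited table), overlapped peaks of 3.90, 3.83 and 3.94-fold in KO2, WT2 and WT3, and none in KO3. The summits of these peaks all lay outside that WT-higher region, so the values were not taken inside it. All 5 regions also fall in the span of the neighbor Ggnbp1, so they cannot be assigned to Bak1 alone.

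Among the BH3-only genes, Bcl2l11, which encodes BIM, a main trigger of B cell death, carried much 5hmC and no differential call. Over all gene windows 7.26% of merged regions overlapped a WT-higher region, so none among its 11 is near the background. Its window (span on chromosome 2, 128126038 to 128162547, plus strand) held 11 regions, 7 of them in all 4 libraries. The strongest, at 128153285 to 128154110 and 27.7 kb from the start, had 7.57 in KO2, 6.57 in KO3, 9.01 in WT2 and 5.75 in WT3. The WT libraries again took both extremes. The region at 128125117 to 128125549, just upstream of the promoter shown above, had 4.78, 4.05, 4.76 and 4.89 in that order, nearly level apart from KO3. It also falls in the span of the neighbor Acoxl, so it cannot be assigned to Bcl2l11 alone.

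Bid, whose product links death receptors to mitochondria, had 9 regions (span on chromosome 6, 120893119 to 120917062, minus strand). Its WT-higher region, at 120910382 to 120910601 (score 5.68 in the authors' deposited table), had a peak of 3.31-fold in WT2 and in WT3 and none in either KO library. A second region, at 120907130 to 120907475, also had peaks in both WT libraries alone (3.83 and 3.15-fold) but no differential call. Bid thus held 2 of the 3 regions of the family with a peak in both WT libraries and neither KO library. By fold enrichment these peaks ranked low within their lists. In WT2 and WT3 the ranks were 4.8% and 9.93% at the first region, and 13.1% and 7.1% at the second. With peaks this weak, a missing call in KO need not mean a lack of 5hmC.

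Bbc3, which encodes PUMA, a p53 target, had the region with the highest mean rank of fold enrichment over the 4 peak lists, 96.3%. At 16315810 to 16316601 on chromosome 7, 7.8 kb into its span (16308398 to 16318334, plus strand), the fold enrichment was 12.3 in KO2, 8.12 in KO3, 12.1 in WT2 and 10.3 in WT3. It exceeded 95.7% or more of the peaks of each list. The genotypes overlapped, all 3 regions of Bbc3 were called in all libraries, and none overlapped a WT-higher region. Pmaip1, which encodes NOXA, an antagonist of MCL1, had 1 weak region outside its span (chromosome 18, 66458604 to 66465558), with 3.98, 2.51, 3.93 and 3.36-fold enrichment in the same order.

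**Figure D3:**
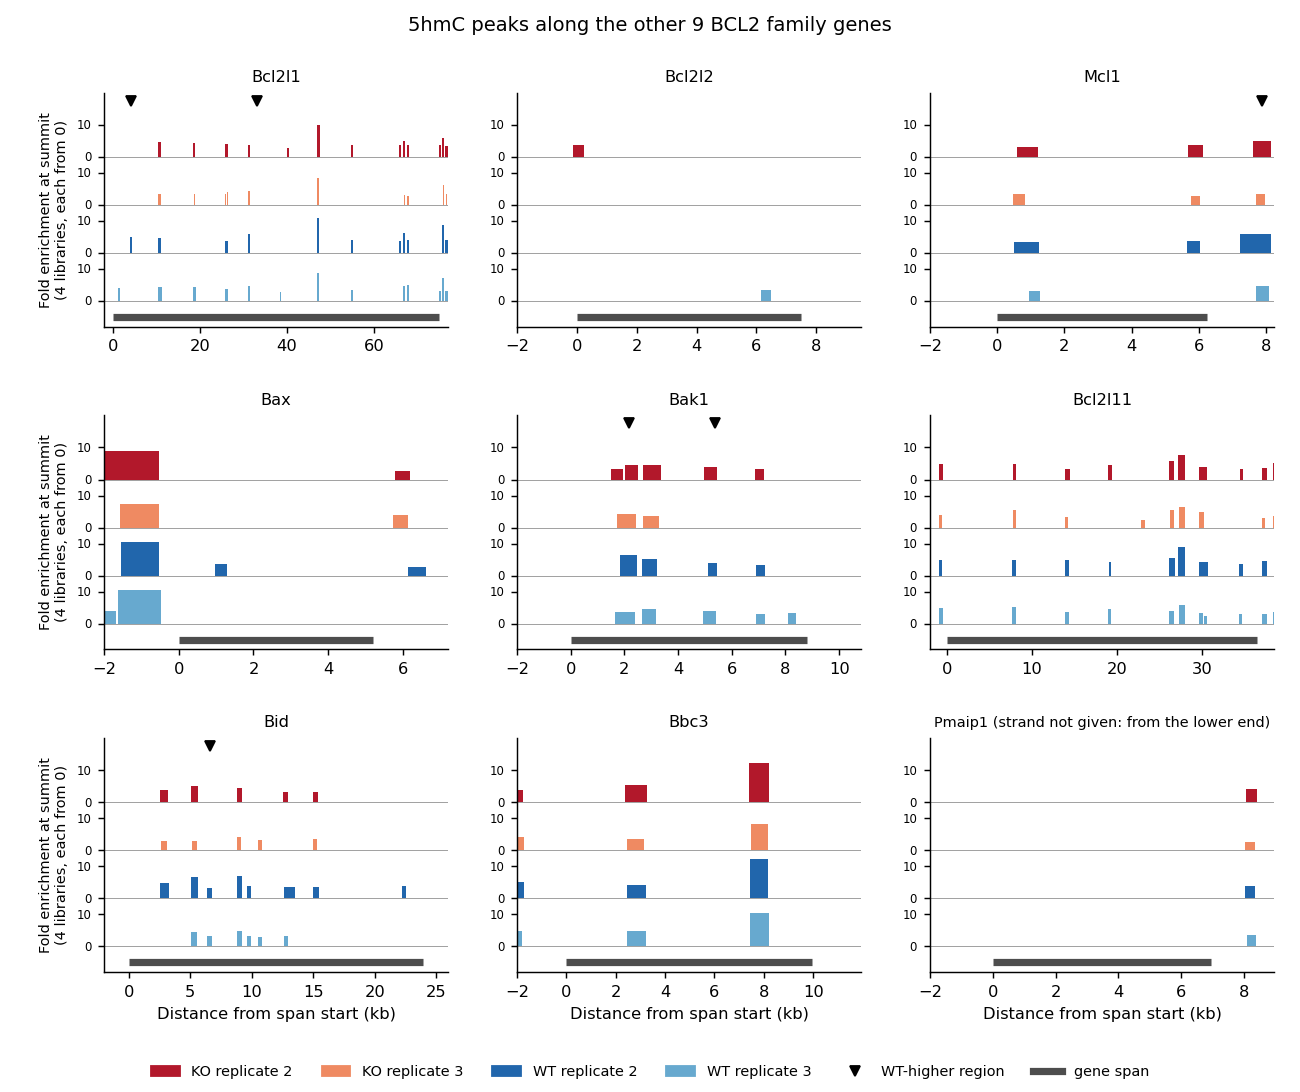
Fold enrichment at the summit of each deposited 5hmC peak (vertical axes, 4 libraries stacked, each from 0; narrow peaks are widened) along the windows of the other 9 genes, by distance in kb from the start of the span (for Pmaip1, whose strand is not given, from its lower end). Triangles mark the 6 WT-higher regions, at Bcl2l1, Mcl1, Bak1 and Bid, and the tallest peaks stand at Bbc3, Bcl2l1 and upstream of Bax.

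At the 43 regions shared by all libraries, no order of the genotypes held for most regions. WT2 had the highest fold enrichment at 24 of them (55.8%, against 54.2% of 86326 shared regions in all gene windows), and KO3 the lowest at 23 (53.5%, against 66.8%). Both KO libraries were below both WT libraries at 14 (32.6%, against 31.2%) and above them at 3 (6.98%, against 3.04%). The share with both KO libraries lower is near the background, so it is no result about the family. KO2 was highest at 11 regions (25.6%, against 21.5%), KO3 at 4 (9.30%, against 4.21%) and WT3 at 4 (9.30%, against 20.1%). The lowest value came from KO2 at 8 (18.6%, against 12.6%), from WT2 at 2 (4.65%, against 6.71%) and from WT3 at 10 (23.3%, against 13.9%). WT2 also had the lowest median background, a value of the library as a whole, and the part of that background in these counts was not tested. The median fold enrichment of the family's peaks was 4.01 in KO2, 4.0 in KO3, 4.56 in WT2 and 4.11 in WT3, below the medians of all peaks in the same lists (5.10, 4.38, 5.51 and 4.89). Of the 43 shared regions, 7 (16.3%) overlapped a WT-higher region, against 9.59% over all gene windows.

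**Figure D4:**
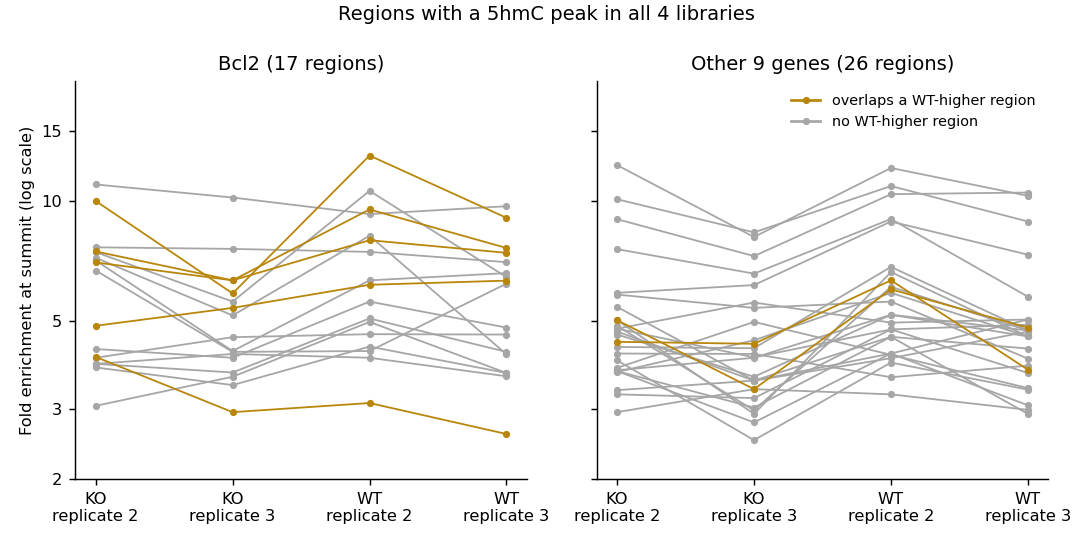
Fold enrichment at the summit (log scale) in each of the 4 libraries for the 43 regions with a peak in every library, 17 in Bcl2 (left) and 26 in the other 9 genes (right); each line is 1 region, and the 7 that overlap a WT-higher region are drawn in gold. WT2 is the highest library for 24 regions and KO3 the lowest for 23.

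Summed over each window, 5hmC peak coverage overlapped between KO and WT for each of the 8 genes that could be tested. Bases under peaks were scaled to equal totals per library and tested as log2(scaled bases + 200) with limma, fitted on 13998 genes with a mean of at least 500 scaled bases. Such fold changes understate the change of genes with little coverage. Of the 10 members, 8 passed this minimum, and Bcl2l2 and Pmaip1 did not. Of the 8, 0 were called lower and 0 higher in KO at an adjusted p under 0.05, where the background of called genes is 0.0% in each direction, and 0 had an unadjusted p under 0.05, against 4.22% of all tested genes. Their median log2 change was -0.03, beside -0.01 over all tested genes, and 4 lay below and 4 above 0.

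For Bcl2 the scaled coverage was 11353 bases in KO2, 11440 in KO3, 12222 in WT2 and 9274 in WT3. The KO libraries lay between the WT ones, and the log2 change, KO against WT, was 0.10 (95% interval -0.26 to 0.46, limma adjusted p = 1). Bcl2l1 had 5868, 4391, 5833 and 5869 bases in that order. Only KO3 stood apart there (log2 change -0.20, interval -0.59 to 0.20, limma adjusted p = 1), and without it the change was 0.0039. Bid had 2199, 2169, 4194 and 2079 bases, so that WT2 alone was high. Its log2 change of -0.41 (interval -1.21 to 0.39, limma adjusted p = 1) became 0.07 without that library.

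The remaining 5 tested genes overlapped between genotypes as well. Mcl1 spread most, with 1474, 1024, 2119 and 649 bases, where the WT libraries were the highest and the lowest. Its interval, -1.22 to 1.28 on the log2 scale, does not exclude a change slightly above 2-fold in either direction. Log2 changes were 0.09 for Bax (interval -0.40 to 0.58), -0.14 for Bak1 (-0.74 to 0.45), -0.08 for Bcl2l11 (-0.39 to 0.22) and 0.10 for Bbc3 (-0.29 to 0.49). Both KO libraries lay below both WT libraries for 0 of the 8 genes and above them for 0, where 16.6% and 14.0% of all tested genes showed such a separation. Pmaip1, below the minimum, had 336 and 356 scaled bases in KO and 322 and 284 in WT. Before scaling its values overlapped (360, 308, 314 and 309).

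**Figure D5:**
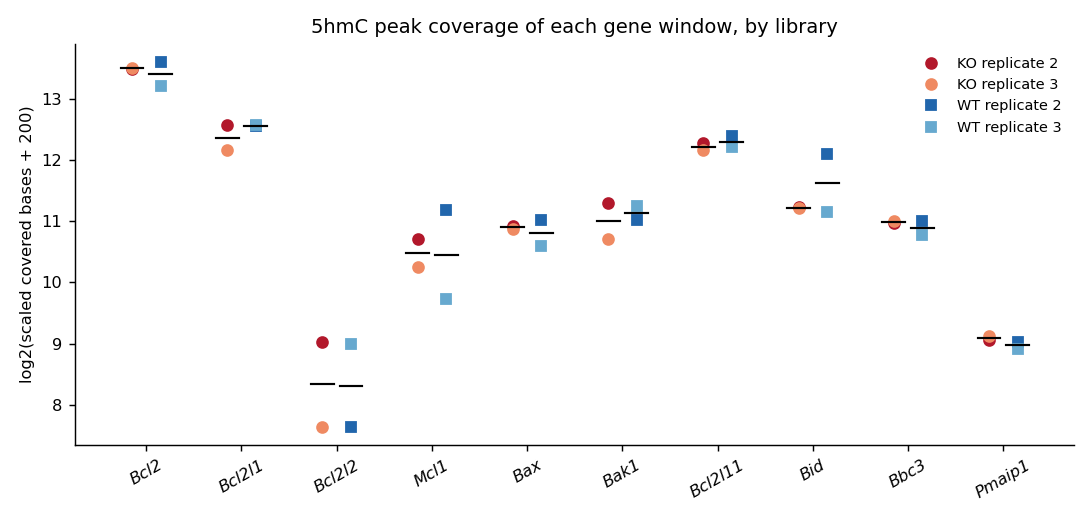
Scaled bases under 5hmC peaks in the window of each of the 10 genes, as log2(scaled bases + 200), with 1 point per library (circles KO, squares WT) and a line at the mean of each genotype. The 2 genotypes overlap for the 8 genes tested, and Bcl2 has the most coverage and Bcl2l2 the least.

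WT-higher regions were also counted over the wider apoptosis machinery. Of 40 further genes of the pathway, 8 (20%) had at least 1 in the authors' deposited table, 10 regions in all, near the 23.7% of all genes, and 0 had a KO-higher region. Bmf, a BH3-only gene, and Birc3, an inhibitor of apoptosis induced by NF-kB, had 2 each. Vdac1, a channel of the outer mitochondrial membrane, had 1 with the highest score of the list, 8.11 in the authors' deposited table. The higher of the 2 scores at Bmf was 6.89. Fas, the death receptor, had 1 of 5.95. Hrk, another BH3-only gene, had 1 of 4.81.

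In limma, 26 of the 40 genes could be tested and 0 passed in either direction. An unadjusted p under 0.05 occurred for 4 (15.4%), against 4.22% of all tested genes. These 4 did not all change in the same direction. Over the 26 genes the median log2 change was -0.02, beside -0.01 over all tested genes. Bmf had the smallest p of the list. In its window, before scaling, 902 bases were covered in KO2, 593 in KO3, 1729 in WT2 and 1532 in WT3, so both KO libraries were lower. Its log2 change was -0.89 (95% interval -1.40 to -0.38), which did not pass the threshold (limma adjusted p = 1, unadjusted 0.006). Leaving out 1 library at a time gave values between -1.04 and -0.74; the gene is described here for its p, so this range is no sign of stability.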

How the data were processed

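Genomic DNA immunoprecipitated for 5hmC was analysed from 2 KO and 2 WT libraries; values of the 4 input libraries were not analysed here. Tools named per the submitters' processing notes are MACS2 2.1.0.20151222 and BWA 0.7.12-r1039, with the build GRCm38.p3; settings are not given in the sources used here. The authors deposited 1 peak list per library, not pooled, with a fold enrichment (ratio over local background), a −log10 p and −log10 q and a peak score for each peak. The authors' deposited tables of differential regions carry a score, of at least 3.08; their caller and compared libraries are not stated. Reads at a summit were recovered from fold enrichment and −log10 p as a whole Poisson pileup, within 0.001 for 266 of 266 peaks; they cover counting error only.

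Gene spans, 1 per gene without exons, came from RefSeq (GRCm38.p6), so exons and introns were not told apart. Overlap of at least 1 bp counted. Coverage was tested with limma 3.58.1 (trend, robust; R 4.3.3), with Benjamini-Hochberg adjustment over all tested genes, after tests on simulated data. The 2 against 2 design cannot give an exact permutation p below 0.333. The members, lists and named-gene rule (all 10 members; of the pathway list, the 6 genes with most WT-higher regions, any with a KO-higher region and any past the limma threshold) were chosen with earlier results of these data known. Bmf's limma values are given because its p was the smallest of the list, a choice made after its values were seen. The result of 1 gene of the pathway list is not reported here. Alternatives changed the pseudocount, filter, scaling, peak threshold, peak number, window, block, overlap and libraries.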

Additional observations from a re-analysis of the deposited data

How the results depend on the processing

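Keeping only peaks with an enrichment of 5-fold or more left 31 merged regions in place of 89, and 11 in all 4 libraries in place of 43. Of the 14 WT-higher regions, 6 had a score of 5 or more. Leaving out 1 library gave 83 to 85 merged regions and 43 to 50 present in every remaining library. The limma calls stayed at 0 among the members and over all genes in every alternative run, which with these libraries says nothing about stability. Unscaled bases gave log2 changes of -0.00088 for Bcl2 and -0.05 for Mcl1, and moved the median of all genes from -0.01 to -0.10. Equal peak numbers gave -0.22 for Mcl1, -0.08 for Bax, 0.05 for Bak1 and 0.02 for Bcl2l11, and the 5-fold minimum 0.50 for Bcl2l11, 0.48 for Bax (0.09 with all peaks), 0.52 for Bbc3 (0.10) and -0.52 for Bcl2l1 (-0.20). That minimum left Mcl1, Bak1 and Bid too little coverage to test. Leaving out 1 library at a time moved Bcl2 between -0.10 and 0.29, Mcl1 between -0.70 and 0.75, Bax between -0.12 and 0.31 and Bbc3 between -0.01 and 0.21, with the lowest value without WT3 each time, and Mcl1 was also below 0 without KO2 (-0.20). Bcl2l1 moved between -0.40 and 0.0039 and Bak1 between -0.44 and 0.15, highest without KO3, and Bcl2l11 between -0.18 and 0.01 and Bid between -0.88 and 0.07, highest without WT2; the cause was not tested. With the replicate block, members and all genes had 0 calls, with 924 genes at an unadjusted p under 0.05 in place of 591. Same-numbered libraries deviated with a correlation of 0.09 across 13998 genes, and with 2 numbers this does not show pairing. Summit depths of 25 to 153 reads limit what weak peaks can show.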

Other observations

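At some WT-higher regions of the family, the fold enrichments of the overlapping peaks do not order the libraries by genotype. The WT-higher region of Bcl2 at 106570459 to 106570664 on chromosome 1 has a score of 4.35 in the authors' deposited table. The peaks that overlap it have fold enrichments of 4.06 in KO2, 2.95 in KO3, 3.11 in WT2 and 2.60 in WT3. The highest value is thus in a KO library and the lowest in a WT library. These values are taken at the peak summits, and all 4 summits lie outside this WT-higher region. They therefore do not measure the signal inside it. Of the 14 WT-higher regions, 2 (1 in Bcl2 and 1 in Bcl2l1) overlapped no peak, and 9 overlapped a peak of KO2, as many as of WT3. WT2 had a peak at 12 of the 14 and KO3 at 7. These regions were singled out after their values were seen, and which libraries the authors compared is not stated in the sources used here.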
